A study of Mus musculus with 12 samples.

Results

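Interferon response genes are the genes that cells switch on when an interferon binds its receptor. A set of 34 of them was chosen by name, from the transcription factors that carry the signal to the antiviral, antigen-processing and GTPase genes that answer it, and 32 of the 34 were measured among 18193 genes on the array. Each was read from 1 probe set that names it as the only gene, the one with the highest mean over all arrays where several did so. Isg15 and Ifi44 had no such probe set and are not analysed here. The 32 comprised 4 transcription factors, 3 sensors of viral RNA, 2 genes of Isg15 conjugation, 13 antiviral effectors, 5 interferon-inducible GTPases, 2 genes of antigen processing and 3 of ADP-ribosylation.

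The arrays measured total liver RNA of male mice in 4 groups of 3. They were Nrf2 null mice given CDDO-Im, Nrf2 null mice given vehicle, wild type mice given CDDO-Im and wild type mice given vehicle. CDDO-Im is the imidazolide of the synthetic triterpenoid CDDO and a potent activator of Nrf2, a transcription factor that Nfe2l2 encodes and that induces antioxidant and detoxifying enzymes. It was given by gavage at 30 uM/kg, in the unit of the labels, with 0 uM/kg for vehicle, and 6 hours is the time in the labels of all groups. Strain and age are not given in the sources used here, and nothing in the labels ties the arrays to different animals, so the p-values reflect only how far these samples spread, which may be technical.

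Type I interferons act through Ifnar1 and Ifnar2, whose kinases phosphorylate Stat2. Stat2 and Irf9 are parts of a complex that binds the interferon-stimulated response element in the promoters of antiviral genes, while interferon gamma acts mainly through the gamma-activated sequence. In liver, hepatocytes, Kupffer cells and endothelial cells all carry these receptors, and a low level of the same genes is held up without infection by tonic interferon.

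Promoter stretches of 6 members are shown because the motifs of the pathway's factors can be looked for there. RefSeq promoter windows of build GRCm38.p6, from 250 bases before to 50 after the gene's start, were found for 26 members, 30 windows in all. The response element core was searched as GAAANNGAA and, on the opposite strand, TTCNNTTTC, and it stood in 13 of 30 member windows (43.3%) against 2812 of all 32851 windows (8.56%). The gamma-activated sequence, TTCNNNGAA, which reads the same on both strands, stood in 5 member windows (16.7%) against 8.3% of all windows. The core of the antioxidant response element, the motif of Nrf2, searched as TGACNNNGC and GCNNNGTCA, stood in 4 (13.3%) against 12.4%. In Bst2 the first 2 motifs share 3 bases. The 6 stretches below are examples with a match, from members whose CDDO-Im difference was 0.51 or more on the log2 scale in at least 1 genotype. Of the other members past that size, Ifit3 held 3 matches and is not printed, the Oasl2 window held none, and no window was used for Usp18. The examples were thus picked by values of these data. The core also stood in windows of Stat2, Trim25, Ddx58, Ifih1, Samd9l and Gbp3, all below that size. Stat2 differed by -0.38 in Nrf2 null and -0.30 in wild type. The window of Ifi35, a member called in Nrf2 null, held no match. The 6 stretches are printed 5′ to 3′ on the gene's strand, with every base of a response element match in capitals, so that overlapping matches run together.
Bst2 (chr8:71537573-71537617, minus strand): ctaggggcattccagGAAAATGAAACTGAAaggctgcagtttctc
Ifit1 (chr19:34640765-34640828, plus strand): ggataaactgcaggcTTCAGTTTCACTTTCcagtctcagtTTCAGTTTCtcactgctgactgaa
Irgm1 (chr11:48871421-48871465, minus strand): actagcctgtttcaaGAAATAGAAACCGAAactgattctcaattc
Igtp (chr11:58199507-58199545, plus strand): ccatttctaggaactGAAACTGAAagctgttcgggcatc
Rsad2 (chr12:26456548-26456586, minus strand): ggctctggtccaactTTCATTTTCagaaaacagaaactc
Gbp2 (chr3:142620590-142620628, plus strand): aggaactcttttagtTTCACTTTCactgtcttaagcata
The Ifit1 stretch held 3 matches, those of Bst2 and Irgm1 held 2 each, and the others 1 each. Counted from the gene's start, with -1 the base before it, the matches lay between positions -130 (Bst2) and -16 (Irgm1). A match of letters does not show that a factor binds there.

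The genotype check was clear. Nfe2l2 had log2 intensities of 4.78, 4.96 and 4.93 in Nrf2 null livers given CDDO-Im and 4.83, 4.87 and 4.44 in Nrf2 null livers given vehicle, against 8.37, 9.14 and 8.67 in wild type livers given CDDO-Im and 8.51, 8.60 and 8.69 in wild type livers given vehicle. Array medians over all probe sets lay between 5.77 and 5.83. The hepatocyte markers were near their 12-array means on every array, with a list median between -0.16 and 0.09. Pancreatic acinar transcripts stood 3.39 above their 12-array mean (list median, log2) on replicate 3 of wild type vehicle and 1.78 above it on replicate 2 of Nrf2 null vehicle, against -0.71 to -0.47 on the other arrays. Each of the 6 vehicle titles ends in a bracketed digit that is missing from the CDDO-Im titles, and any difference in handling it stands for cannot be told apart from CDDO-Im. Of the members, 24 lay above the array's median on all 12 arrays. Ifit2, Oasl2 and Gbp3 lay below it on all 12, and Ifit1, Ifit3, Gbp2, Cmpk2 and Samd9l on some, so the sizes of their differences are the least certain.

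In Nrf2 null livers given CDDO-Im 4 interferon response genes were higher than in Nrf2 null livers given vehicle. Bst2 (tetherin, which holds budding virus on the cell surface), Usp18 (the protease that removes Isg15 and restrains the type I receptor), Dhx58 (the helicase LGP2, which tunes the RNA sensors) and Ifi35 rose, by 1.74, 2.71, 1.39 and 1.38-fold. These 4 of 32 members were called higher with limma (12.5%; a call is an adjusted p under 0.05, by the Benjamini-Hochberg method over all genes), where 3.58% of all genes were. No member was called lower, where 2.32% of all genes were. At an unadjusted p under 0.05, 15 members were higher (46.9%, against 10.7% of all genes) and 2, Stat2 and Oas2, were lower (6.25%, against 8.69%). The median difference over the 32 was 0.31 on the log2 scale, 27 were above 0, and the median over all genes was -0.00. Markers of Kupffer cells, the macrophages of the liver, had a median difference of 0.37 in the same comparison, and their part in the members' differences was not tested.

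In wild type livers Bst2 rose as well, by 1.57-fold with CDDO-Im, and it was the only member called there. That is 1 of 32 (3.12%), where 0.978% of all genes were called higher, and 0 members were called lower by limma, where 0.846% of all genes were. At an unadjusted p under 0.05, 13 members were higher (40.6%, against 6.1% of all genes) and 0 were lower (against 7.55%). The median difference over the members was 0.27, and 26 of 32 were above 0, against a median of 0.01 over all genes. The 2 estimates of the CDDO-Im effect come from separate arrays, but the members were chosen with results of these data known.

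Separation of the arrays was more frequent than calls. All 3 CDDO-Im arrays lay above all 3 vehicle arrays for 13 members in Nrf2 null livers (40.6%), where 11.6% of all genes did so, and for 16 in wild type livers (50%), where 8.42% did. No member had all CDDO-Im arrays below all vehicle arrays in either genotype, where 11.4% of all genes in Nrf2 null and 8.18% in wild type did. Members that did not overlap in either genotype were Irf7, Ifit1, Ifit3, Rsad2, Usp18, Ifi35, Dhx58, Parp9 and Bst2. The share of all genes that separated in both genotypes was not counted. With 3 arrays against 3, an exact permutation test of a single gene cannot go below 0.1 (two-sided).

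**Figure D1:**
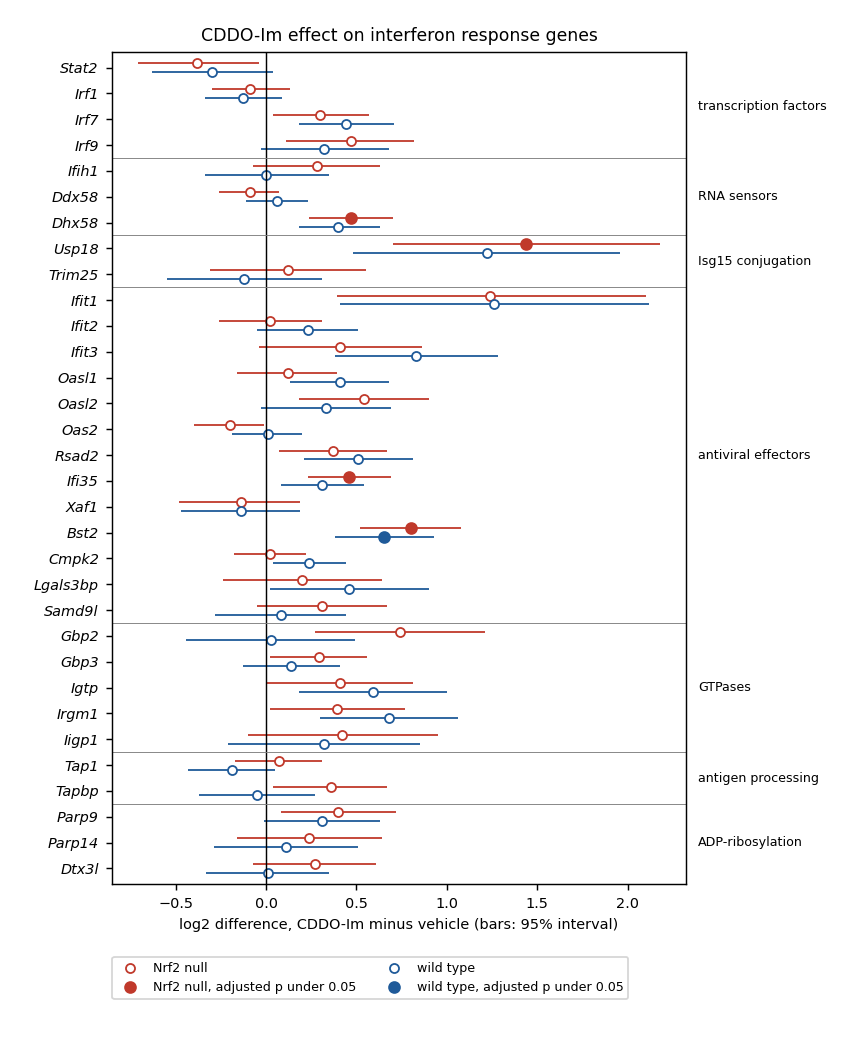
Difference in log2 intensity, CDDO-Im minus vehicle, for each of the 32 members in Nrf2 null (red) and wild type (blue) livers, with 95% intervals of the limma fit; filled points passed an adjusted p under 0.05. Most points lie right of 0 in both genotypes, with Usp18 and Ifit1 farthest right, and filled points are Bst2, Usp18, Dhx58 and Ifi35 in Nrf2 null and Bst2 in wild type.

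Bst2 was the member with the smallest adjusted p in both genotypes. Its log2 intensity was 8.71, 8.91 and 8.92 in Nrf2 null livers given CDDO-Im, against 7.81, 7.95 and 8.38 in Nrf2 null livers given vehicle. In wild type livers it was 9.20, 9.12 and 9.12 with CDDO-Im, against 8.39, 8.60 and 8.49 with vehicle. All CDDO-Im arrays lay above all vehicle arrays of the same genotype. The difference was 0.80 ± 0.13 (SE) in Nrf2 null (limma adjusted p = 0.00958) and 0.65 ± 0.13 in wild type (limma adjusted p = 0.0248). The call in Nrf2 null ended without replicate 3 of Nrf2 null CDDO-Im (difference 0.76, limma adjusted p = 0.0512). The call in wild type ended without replicate 1 or 2 of wild type vehicle, or without any 1 of the 3 wild type CDDO-Im arrays, with differences of 0.60 to 0.71 and limma adjusted p between 0.0607 and 0.137.

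Usp18 showed the largest difference of any member in Nrf2 null livers. It had 8.38, 7.42 and 8.30 in Nrf2 null livers given CDDO-Im, against 6.29, 6.21 and 7.29 in Nrf2 null livers given vehicle. It had 7.44, 7.85 and 8.49 in wild type livers given CDDO-Im, against 6.85, 6.40 and 6.88 in wild type livers given vehicle. No CDDO-Im array was below a vehicle array of its genotype. The difference was 1.44 ± 0.34 (SE) in Nrf2 null (limma adjusted p = 0.0319), a fold of 2.71 with a 95% interval of 1.62 to 4.54. In wild type it was 1.22 ± 0.34 (limma adjusted p = 0.102), a fold of 2.33 (1.39 to 3.89), which did not pass. Leaving out replicate 1 or 2 of Nrf2 null vehicle, or replicate 1 or 3 of Nrf2 null CDDO-Im, ended the call in Nrf2 null (limma adjusted p between 0.0861 and 0.125). Trim25, the other gene of this group and a ubiquitin and Isg15 ligase, differed by 0.12 in Nrf2 null and -0.12 in wild type, neither called.

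Among the RNA sensors Dhx58 was alone in passing. Its log2 intensity was 6.72, 6.66 and 7.02 in Nrf2 null livers given CDDO-Im, against 6.25, 6.36 and 6.37 in Nrf2 null livers given vehicle. The wild type values were 6.78, 6.75 and 6.92 with CDDO-Im, against 6.35, 6.32 and 6.57 with vehicle. Neither genotype had an array out of order. The difference was 0.47 ± 0.10 (SE) in Nrf2 null (limma adjusted p = 0.0245) and 0.40 ± 0.10 in wild type (limma adjusted p = 0.0809). The Nrf2 null call ended without replicate 1 or 2 of Nrf2 null vehicle or replicate 3 of Nrf2 null CDDO-Im (limma adjusted p between 0.0644 and 0.0978). Its other 2 probe sets were dimmer, with differences of -0.03 and 0.10 in Nrf2 null and 0.12 and 0.14 in wild type, and the mean of the 3 was not called (difference 0.18 in Nrf2 null, limma adjusted p = 0.125). Ifih1 (MDA5, a sensor of long double-stranded RNA) differed by 0.28 in Nrf2 null and 0.00 in wild type, and Ddx58 (RIG-I, a sensor of RNA ends) by -0.09 and 0.06, none of them called.

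Ifi35, an interferon-induced leucine zipper protein, had 10.04, 9.92 and 10.31 in Nrf2 null livers given CDDO-Im, against 9.61, 9.55 and 9.73 in Nrf2 null livers given vehicle. It had, in wild type livers, 10.20, 9.97 and 10.11 with CDDO-Im, against 9.87, 9.80 and 9.68 with vehicle. Again no array crossed from one group into the other. The difference was 0.46 ± 0.11 (SE) in Nrf2 null (limma adjusted p = 0.0285) and 0.31 ± 0.11 in wild type (limma adjusted p = 0.189). Without replicate 1 or 2 of Nrf2 null vehicle, or replicate 3 of Nrf2 null CDDO-Im, limma's adjusted p was between 0.0964 and 0.112. The suffix of this probe set marks probes that can match more than 1 transcript. A second probe set gave 0.34 in Nrf2 null and 0.37 in wild type, the dimmest 0.10 and -0.00, and the mean of all 3 was not called in Nrf2 null (0.30, limma adjusted p = 0.106).

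**Figure D2:**
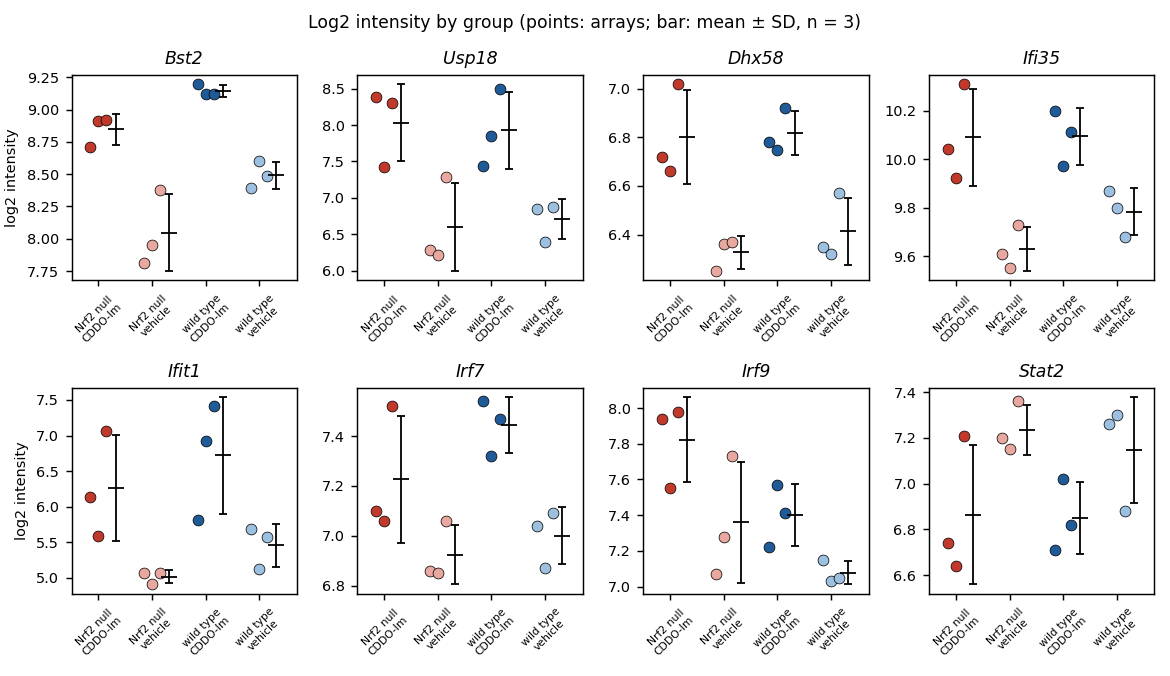
Log2 intensity of Bst2, Usp18, Dhx58, Ifi35, Ifit1, Irf7, Irf9 and Stat2 on each array (points, replicates 1 to 3 from left to right within a group), with the group mean ± SD (n = 3) as a bar. Bst2, Usp18, Dhx58 and Ifi35 lie higher with CDDO-Im than with vehicle on all 3 arrays of both genotypes, while Stat2 does not.

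The other antiviral effectors did not pass. Ifit1, which binds viral RNA that lacks the host cap methylation, had 6.14, 5.59 and 7.06 in Nrf2 null livers given CDDO-Im, against 5.07, 4.91 and 5.07 in Nrf2 null livers given vehicle. In wild type livers it had 5.82, 6.92 and 7.42 with CDDO-Im, against 5.69, 5.12 and 5.57 with vehicle. The groups did not overlap, but the CDDO-Im arrays spread over more than 1 log2 unit in both genotypes. The difference was 1.24 ± 0.39 (SE) in Nrf2 null (limma adjusted p = 0.0878) and 1.26 ± 0.39 in wild type (limma adjusted p = 0.143). Both passed without replicate 1 of wild type CDDO-Im (limma adjusted p = 0.0423 in Nrf2 null and 0.0397 in wild type). That array enters the Nrf2 null test only through the estimate of the spread that all groups share. Of 24 alternative settings, 2 called Ifit1 in Nrf2 null and 1 in wild type.

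Its neighbours Ifit3 and Ifit2 on chromosome 19 gave 0.41 and 0.02 in Nrf2 null and 0.83 and 0.23 in wild type. Ifit3 thus came nearest to the threshold in wild type after Bst2 (limma adjusted p = 0.07). Rsad2 (viperin, which makes a chain-terminating nucleotide) gave 0.37 in Nrf2 null and 0.51 in wild type, while Cmpk2, a nucleotide kinase 12.7 kb from it, gave 0.02 and 0.24. Oasl1 gave 0.12 and 0.41, Oasl2, 10.9 kb from it, 0.54 and 0.33, and Oas2, a synthetase of the oligoadenylates that switch on RNase L, -0.20 and 0.01. Lgals3bp, a secreted glycoprotein, gave 0.20 and 0.46, Samd9l 0.31 and 0.08, and Xaf1, a pro-apoptotic gene, -0.14 in both. None of these 10 effectors, Ifit2 and Ifit3 included, was called in either genotype on the probe set that stands for it. A second Cmpk2 probe set, dimmer and below the array median on all 12 arrays, differed by 0.42 in Nrf2 null and passed when all probe sets were tested (limma adjusted p = 0.0455), and by 0.27 in wild type, where it did not (limma adjusted p = 0.297). The other Rsad2 probe sets, dimmer, gave 0.31 and 0.27 in Nrf2 null and 0.32 and 0.78 in wild type, not called. A second Xaf1 probe set differed between genotypes (Nrf2 null minus wild type) by -1.05 with vehicle and -1.29 with CDDO-Im. It was not called (limma adjusted p = 0.334 and 0.216), and the probe set used for Xaf1 differed by 0.05 and 0.04.

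The GTPases, a group that takes part in the defence against pathogens held in vacuoles, were all above 0 in both genotypes, 5 of 5, and none was called. The median over the 5 was 0.41 in Nrf2 null and 0.32 in wild type. Irgm1 gave 0.39 ± 0.17 (SE) in Nrf2 null and 0.68 ± 0.17 in wild type (limma adjusted p = 0.238 and 0.0752). Igtp gave 0.41 and 0.59, Iigp1 0.42 and 0.32, and Gbp3 0.29 and 0.14. Gbp2 gave 0.74 ± 0.21 in Nrf2 null (limma adjusted p = 0.0659) and 0.03 ± 0.21 in wild type (limma adjusted p = 0.981). Its probe set suffix, too, marks possible matches to other transcripts, and a second probe set gave 0.55 and 0.20.

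The transcription factors did not move together. Irf7, which is itself interferon-induced and amplifies the response, had 7.10, 7.06 and 7.52 in Nrf2 null livers given CDDO-Im, against 6.86, 6.85 and 7.06 in Nrf2 null livers given vehicle. It had 7.54, 7.32 and 7.47 in wild type livers given CDDO-Im, against 7.04, 6.87 and 7.09 in wild type livers given vehicle. The CDDO-Im arrays lay above the vehicle arrays in both genotypes, with differences of 0.30 ± 0.12 (SE) in Nrf2 null (limma adjusted p = 0.186) and 0.44 ± 0.12 in wild type (limma adjusted p = 0.0951).

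Irf9, the DNA-binding subunit of the complex that holds Stat2, had 7.94, 7.55 and 7.98 in Nrf2 null livers given CDDO-Im, against 7.07, 7.28 and 7.73 in Nrf2 null livers given vehicle. In wild type livers the values were 7.22, 7.57 and 7.41 with CDDO-Im, against 7.15, 7.03 and 7.05 with vehicle. Replicate 3 of Nrf2 null vehicle lay above 1 of the CDDO-Im arrays, and the differences of 0.47 ± 0.16 (SE) in Nrf2 null and 0.32 ± 0.16 in wild type did not pass (limma adjusted p = 0.123 and 0.428).

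Stat2 pointed the other way. It had 6.74, 6.64 and 7.21 in Nrf2 null livers given CDDO-Im, against 7.20, 7.15 and 7.36 in Nrf2 null livers given vehicle, and 6.71, 7.02 and 6.82 in wild type livers given CDDO-Im, against 7.26, 7.30 and 6.88 in wild type livers given vehicle. The groups overlapped in both genotypes. The differences of -0.38 ± 0.15 (SE) in Nrf2 null and -0.30 ± 0.15 in wild type did not pass (limma adjusted p = 0.195 and 0.446), and a second Stat2 probe set gave -0.28 and -0.14. Irf1, a factor induced by interferon gamma, differed by -0.09 and -0.13, not called.

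Antigen processing and ADP-ribosylation held no called member. Tap1, the peptide transporter of class I presentation, gave 0.07 in Nrf2 null and -0.19 in wild type, and Tapbp (tapasin, which loads the peptide) 0.36 and -0.05. Parp9, Parp14 and Dtx3l lie beside each other on chromosome 16, and Parp9 and Dtx3l form a complex that modifies proteins. They gave 0.40, 0.24 and 0.27 in Nrf2 null and 0.31, 0.11 and 0.01 in wild type.

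**Figure D3:**
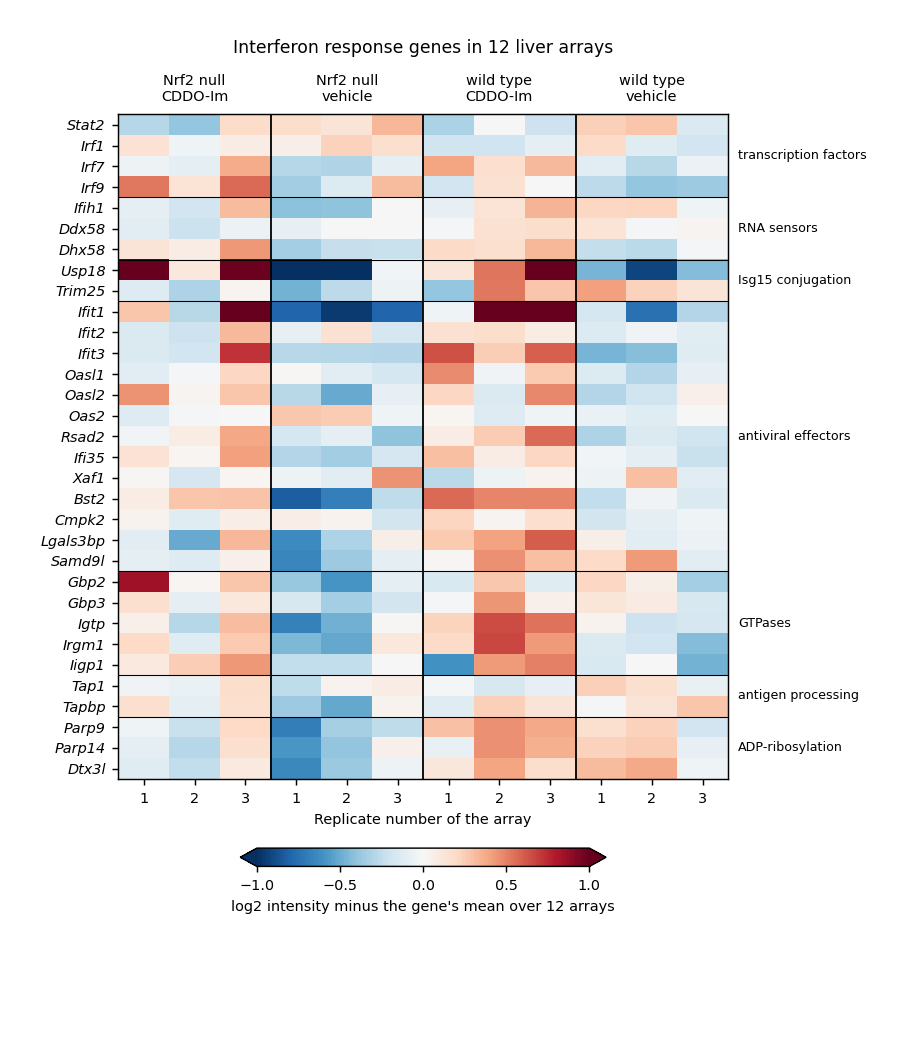
Log2 intensity of the 32 members (rows, by role) on the 12 arrays (columns), as the deviation from the gene's mean over 12 arrays; red is higher, blue lower, and deviations beyond 1 are drawn at the end of the colour scale. Replicate 3 of Nrf2 null CDDO-Im is red for 31 members, while replicate 2 of Nrf2 null CDDO-Im, replicates 1 and 2 of Nrf2 null vehicle and replicate 3 of wild type vehicle are red for 9, 5, 7 and 4.

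Single arrays carried much of the spread. The median deviation of the 32 members from their 12-array means was -0.01, -0.11 and 0.27 on the Nrf2 null CDDO-Im arrays, against -0.32, -0.30 and -0.05 on the Nrf2 null vehicle arrays. It was 0.04, 0.24 and 0.28 on the wild type CDDO-Im arrays, against -0.04, -0.06 and -0.11 on the wild type vehicle arrays. Replicate 3 of Nrf2 null CDDO-Im had 31 of 32 members above their mean, and replicates 1 and 2 had 16 and 9. In Nrf2 null livers the CDDO-Im array with the lowest median (-0.11) was below the highest vehicle array (-0.05), while in wild type the groups did not overlap. Without replicate 3 of Nrf2 null CDDO-Im the members' median difference in Nrf2 null was 0.21 and 0 members were called. Calls over all genes fell as well, from 1074 to 97. Without replicate 3 of Nrf2 null vehicle the members' median difference was 0.42, and 7 members were called higher and 1, Oas2, lower. Without replicate 1 or 2 of Nrf2 null vehicle 1 member, Bst2, was called. In wild type, 4 members (Bst2, Dhx58, Ifit3 and Irf7) were called without replicate 3 of wild type vehicle, the array with the most acinar signal, and the same 4 without replicate 3 of Nrf2 null CDDO-Im, which enters that test only through the shared estimate of the spread. There were 2 (Bst2 and Irgm1) without replicate 3 of Nrf2 null vehicle, 1 (Ifit1) without replicate 1 of wild type CDDO-Im, and 0 without replicate 2 or 3 of wild type CDDO-Im or replicate 1 or 2 of wild type vehicle. Over all genes, too, wild type calls moved, from 332 with all arrays to 1385 without replicate 3 of wild type vehicle. They were 104 without replicate 1 of wild type vehicle.

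The genotypes were then set against each other. Nrf2 null livers given vehicle had somewhat lower values of these genes than wild type livers given vehicle, by a median of -0.13 over the 32, with 22 below 0, while the median over all genes was 0.02. No member passed. By limma 0 were called higher, where 0.115% of all genes were, and 0 lower, where 0.275% were, and 9 (28.1%) had an unadjusted p under 0.05, where 13.2% of all genes did. Of those 9, 8 were lower in Nrf2 null and 1, Oas2, higher (0.22). The 3 Nrf2 null values were all lower than the 3 wild type values for 5 members (15.6%, against 8.49% of all genes), Ifit1, Parp9, Dtx3l, Trim25 and Bst2, and all higher for 0 members (against 8.55%).

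The ADP-ribosylation genes were the role group with the lowest median in this comparison, -0.49, and are described by array after their values were seen. Dtx3l had 8.53, 8.80 and 9.12 in Nrf2 null livers given vehicle, against 9.49, 9.55 and 9.13 in wild type livers given vehicle, a difference of -0.57 ± 0.16 (SE; limma adjusted p = 0.148). Parp9 had 8.67, 9.03 and 9.11 in Nrf2 null livers, against 9.52, 9.59 and 9.17 in wild type livers, a difference of -0.49 ± 0.15 (limma adjusted p = 0.175). The Nrf2 null arrays were the lower ones for both genes, and the nearest arrays were replicate 3 of each group. Parp14 differed by -0.45 (limma adjusted p = 0.318), and a second Dtx3l probe set gave -0.68. The differences of Bst2 (-0.44), Samd9l (-0.54), Trim25 (-0.51), Tapbp (-0.41) and Ifih1 (-0.40) did not pass either. Ifih1 lies on chromosome 2 with Nfe2l2, 13000 kb from it. This comparison shares the Nrf2 null vehicle arrays with the CDDO-Im comparison in Nrf2 null, so an array that is low in that group lowers the one and raises the other.

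With CDDO-Im in both groups, no member passed either. Nrf2 null livers given CDDO-Im differed from wild type livers given CDDO-Im by a median of -0.14 over the members, with 22 below 0, against 0.01 over all genes. By limma 0 members were called higher, where 0.621% of all genes were, and 0 lower, where 0.824% were, and 7 (21.9%) had an unadjusted p under 0.05, where 11.3% of all genes did. The Nrf2 null arrays lay wholly below the wild type arrays for Ddx58, Parp9, Dtx3l and Bst2 (12.5%, against 7.82% of all genes) and wholly above them for Irf1 (3.12%, against 9.01%). Ddx58, described by array after its values were seen, had 8.54, 8.43 and 8.59 in Nrf2 null livers, against 8.63, 8.80 and 8.82 in wild type livers, a difference of -0.23 ± 0.08 (SE; limma adjusted p = 0.239). Lgals3bp differed by -0.52, Igtp by -0.45, Parp9 by -0.40 and Bst2 by -0.30, and Irf9 by 0.43 in the other direction, none of them called.

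**Figure D4:**
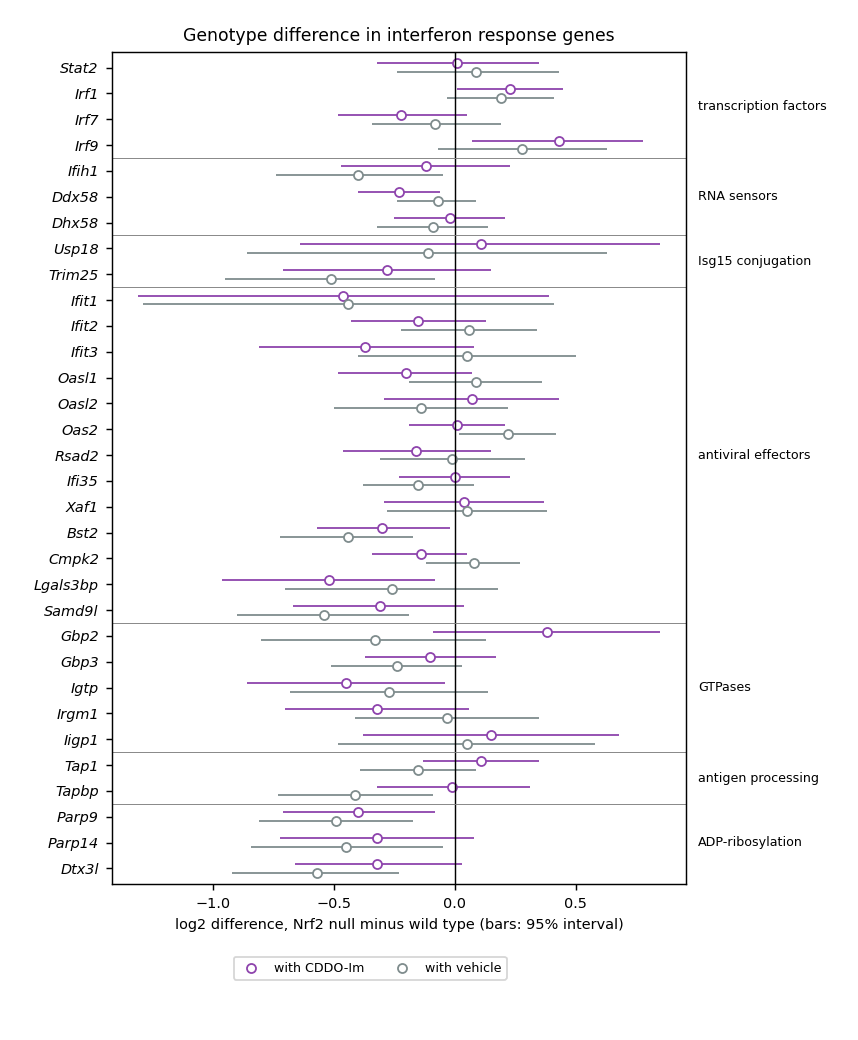
Difference in log2 intensity, Nrf2 null minus wild type, for each of the 32 members with CDDO-Im (purple) and with vehicle (grey), with 95% intervals of the limma fit. More points lie left of 0 than right of it (22 of 32 with each treatment), and no point is filled, since no member passed an adjusted p under 0.05.

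The test that asks whether CDDO-Im acted differently in the 2 genotypes is the interaction, the Nrf2 null effect minus the wild type effect. It called 0 members by limma, where 0.011% of all genes were called with a larger and 0.126% with a smaller effect in Nrf2 null. At an unadjusted p under 0.05 there was 1 member, Gbp2 (3.12%, against 7.1% of all genes), with a difference of 0.72 between the effects and an adjusted p of 0.668. The members' median was 0.08, with 18 above 0. For the 4 called members the difference between the effects was small beside its interval. It was 0.15 for Bst2 (95% interval -0.25 to 0.54), 0.22 for Usp18 (-0.83 to 1.27), 0.07 for Dhx58 (-0.25 to 0.39) and 0.15 for Ifi35 (-0.18 to 0.48). For Ifit1 the interval, -1.22 to 1.19, was about as wide as the effect itself in either direction, so these arrays cannot show that its effects were alike.

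Interferon pathway genes outside the 32 members were read in the same fit. Of 56 further interferon-induced genes 48 were measured, and their median difference with CDDO-Im was 0.01 in Nrf2 null and 0.03 in wild type, close to the medians over all genes. Of the 48, 10 lay below the array median on all 12 arrays, where 3 of the 32 members did. In Nrf2 null livers 3 of the 48 were called higher (6.25%, where 3.58% of all genes were) and 1 lower (2.08%, where 2.32% were). In wild type livers 2 were called higher (4.17%, where 0.978% of all genes were) and 1 lower (2.08%, where 0.846% were). Rtp4, a chaperone induced by interferon, rose in both, by 1.14 ± 0.24 (SE) in Nrf2 null (limma adjusted p = 0.0196) and 1.14 ± 0.24 in wild type (limma adjusted p = 0.0338). It had 7.99, 8.06 and 8.64 in Nrf2 null livers given CDDO-Im, against 6.83, 6.77 and 7.67 in Nrf2 null livers given vehicle, and 8.32, 8.52 and 8.80 in wild type livers given CDDO-Im, against 7.52, 7.21 and 7.49 in wild type livers given vehicle. The Nrf2 null call ended without replicate 1 or 2 of Nrf2 null vehicle or replicate 2 or 3 of Nrf2 null CDDO-Im (limma adjusted p up to 0.0854). The wild type call ended without replicate 1 or 2 of wild type vehicle, any 1 wild type CDDO-Im array, or replicate 2 of Nrf2 null CDDO-Im (limma adjusted p up to 0.161). It also ended with the mean of all Rtp4 probe sets and with arrays centred on their medians. Over all settings tried, the lowest Rtp4 difference was 0.62 in Nrf2 null and 0.57 in wild type.

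Among the same genes Cxcl9, a chemokine induced by interferon gamma, rose by 0.88 in Nrf2 null (limma adjusted p = 0.011) and differed by 0.42 in wild type, where it was not called. Sp100, a nuclear body protein whose probe set lay below the array median on all arrays, rose by 0.37 in Nrf2 null (limma adjusted p = 0.0232). Ifi27 rose by 0.88 in wild type (limma adjusted p = 0.035) and differed by 0.53 in Nrf2 null, not called. Ifitm2, which blocks the entry of viruses, fell by 0.86 on the log2 scale in both genotypes (limma adjusted p = 0.00666 in Nrf2 null and 0.00436 in wild type). Its values were 12.21, 12.01 and 12.17 in Nrf2 null livers given CDDO-Im, against 12.89, 12.99 and 13.07 in Nrf2 null livers given vehicle, and no single array ended its call in either genotype. The call of Cxcl9 ended without replicate 3 of Nrf2 null CDDO-Im (limma adjusted p = 0.0551), and that of Sp100 without the same arrays as Rtp4 in Nrf2 null (up to 0.0954). Any 1 of 7 arrays ended that of Ifi27 (up to 0.162).

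Upstream of the members, interferon ligands showed no call. Of 20 ligand genes 9 were measured, 5 of them below the array median on all arrays, with median differences of 0.00 in Nrf2 null and 0.01 in wild type. The receptor subunits Ifnar1, Ifnar2, Ifngr1 and Ifngr2 differed by -0.01, 0.31, -0.02 and 0.03 in Nrf2 null and by -0.33, -0.13, -0.23 and 0.03 in wild type, none called. Of the 17 measured receptor and signalling genes, Irf3, which switches on interferon beta, was the only call, higher by 0.29 in Nrf2 null (limma adjusted p = 0.0486), and the removal of any 1 of 10 arrays ended it (up to 0.186). Irf3 is 5.88% of that list, where 3.58% of all genes were called higher in Nrf2 null. Of 14 measured nucleic acid sensing genes, Ikbke, a kinase that activates Irf3, fell by 0.79 in Nrf2 null (limma adjusted p = 0.0365) and by 0.87 in wild type (limma adjusted p = 0.0474). Ikbke is 7.14% of that list, where 2.32% of all genes in Nrf2 null and 0.846% in wild type were called lower. Any 1 of 9 arrays, when left out, ended the call in Nrf2 null (limma adjusted p up to 0.129), and any 1 of 11 that in wild type (up to 0.223).

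Class I antigen presentation beyond Tap1 and Tapbp had 12 measured genes. B2m, the invariant chain of class I, rose by 0.35 in Nrf2 null (limma adjusted p = 0.0153) and differed by 0.23 in wild type (not called). It had 13.72, 13.71 and 13.67 in Nrf2 null livers given CDDO-Im, against 13.32, 13.30 and 13.42 in Nrf2 null livers given vehicle. Pdia3 and Calr, chaperones of the endoplasmic reticulum that also load class I, fell in both genotypes, Pdia3 by 1.12 in Nrf2 null and 1.10 in wild type and Calr by 0.87 and 0.73. B2m is 8.33% of this list, where 3.58% of all genes were called higher in Nrf2 null. Pdia3 and Calr are 16.7% of it, where 2.32% of all genes in Nrf2 null and 0.846% in wild type were called lower. The call of B2m ended without replicate 1 or 2 of Nrf2 null vehicle or replicate 2 or 3 of Nrf2 null CDDO-Im (limma adjusted p up to 0.0604). In Nrf2 null, removal of replicate 3 of Nrf2 null CDDO-Im ended the calls of Pdia3 and Calr, and removal of replicate 1 or 2 of Nrf2 null vehicle that of Calr (limma adjusted p up to 0.0507 and 0.0558). Any 1 of 4 arrays ended the wild type call of Pdia3 (up to 0.0837) and any 1 of 9 that of Calr (up to 0.226). Between genotypes with vehicle, 12 of 12 of these genes were lower in Nrf2 null, with a median of -0.21, and none was called. Of all genes, 55.3% were above 0 in that comparison. The list median per array was -0.28, -0.23 and 0.16 in Nrf2 null vehicle, against 0.22, 0.21 and 0.01 in wild type vehicle. The groups thus overlapped, with replicate 3 of Nrf2 null vehicle above replicate 3 of wild type vehicle.

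Markers of other liver cells are given because in whole-liver RNA fewer cells of a type and less RNA per cell cannot be told apart. Kupffer cell markers had a median of the same sign as the members in each comparison between groups. Of 9 markers, 8 were above 0 with CDDO-Im in Nrf2 null (median 0.37) and 8 in wild type (median 0.22), and 0 of 9 between genotypes with vehicle (median -0.36), none of them called in these 3 comparisons. Their list median per array ranged from 0.01 to 0.20 in Nrf2 null CDDO-Im, against -0.78 to -0.08 in Nrf2 null vehicle, and from -0.04 to 0.52 in wild type CDDO-Im, against -0.34 to 0.50 in wild type vehicle, so that it separated the treatments in Nrf2 null and overlapped in wild type. Array by array the Kupffer markers did not always follow the members. On replicate 3 of Nrf2 null CDDO-Im the markers had 0.01 and the members 0.27. On replicate 3 of wild type CDDO-Im the markers had -0.04 and the members 0.28. Both were low on replicate 2 of Nrf2 null vehicle, at -0.78 and -0.30. No Kupffer marker lay below the array median on all arrays. Of the 8 T and NK cell markers 5 did, as did 1 of 4 B cell markers and 1 of 6 markers of plasmacytoid dendritic cells. Dim markers can hide a change, so medians near 0 for these lists do not show that the cells were unchanged. Medians with CDDO-Im were -0.02 in Nrf2 null and 0.03 in wild type for 8 T and NK cell markers, -0.08 and 0.07 for 4 B cell markers, -0.11 and -0.01 for 6 markers of plasmacytoid dendritic cells, and -0.13 and 0.06 for 6 neutrophil markers. Sinusoidal endothelial markers gave 0.15 and 0.06 over 8 genes. The marker genes called with CDDO-Im were Oit3 (higher in both genotypes), Lyve1 (higher in wild type), S100a8 and S100a9 (lower in Nrf2 null) and Ly6d (lower in wild type). Between genotypes with CDDO-Im, limma called Marco, a Kupffer cell receptor (difference -1.32, adjusted p = 0.0307), and Lyve1 (difference -1.92, adjusted p = 0.00412) lower in Nrf2 null. No single array ended the calls of Lyve1. In Nrf2 null, removal of replicate 3 of Nrf2 null CDDO-Im ended those of Oit3 and S100a8 (limma adjusted p = 0.0546 for each), and any 1 of 4 arrays that of S100a9 (up to 0.118). Any 1 of 6 arrays ended the wild type call of Oit3 (limma adjusted p up to 0.174), any 1 of 5 that of Ly6d (up to 0.137), and any 1 of 4 that of Marco (up to 0.0993).

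**Figure D5:**
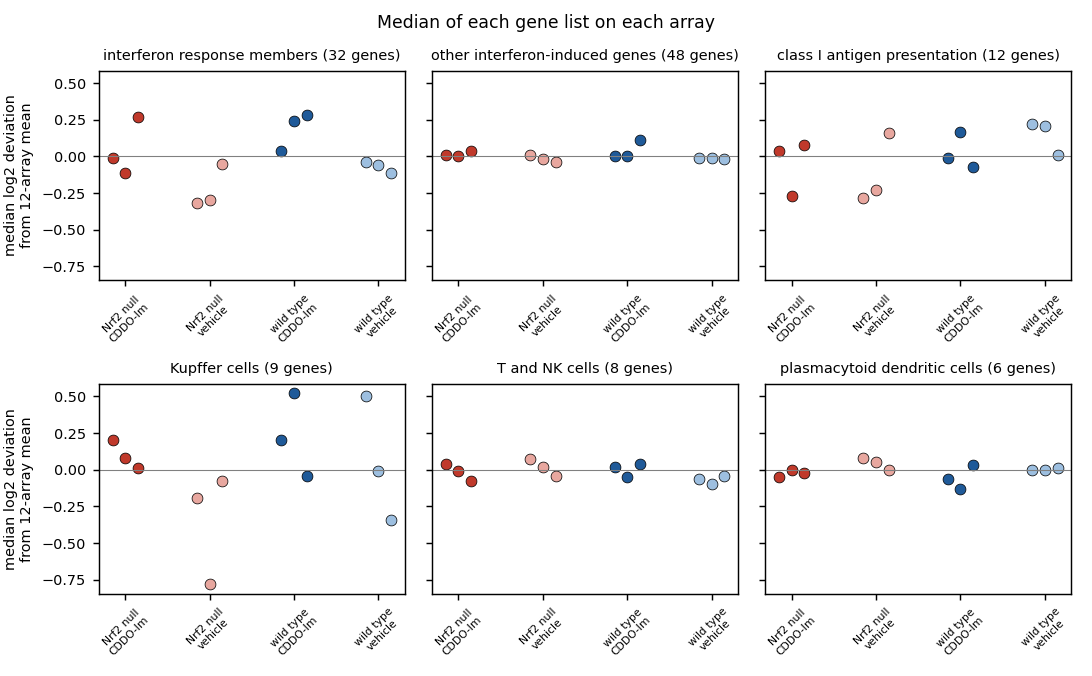
Median deviation (log2) of each gene list from its 12-array mean on each array, with groups from left to right as named on the axis and replicates 1 to 3 within a group. The 32 members are lowest on replicates 1 and 2 of Nrf2 null vehicle (-0.32 and -0.30), and the 9 Kupffer cell markers on replicate 2 of Nrf2 null vehicle (-0.78) and then replicate 3 of wild type vehicle (-0.34). The other interferon-induced genes and the T, NK and plasmacytoid dendritic cell markers stay between -0.13 and 0.11. Of these lists, 10 of 48, 5 of 8 and 1 of 6 genes lay below the array median on all 12 arrays.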

How the data were processed

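Total liver RNA was measured on 12 one-colour Affymetrix arrays. The authors deposited log2 intensity values, 1 per probe set and array, made with RMA per the submitters' processing notes (version not stated), and these were used as deposited. Of 45101 probe sets 64 were controls, 34945 named 1 gene, 932 several and 9160 none. Each gene was represented by the brightest probe set, by mean over all arrays, that names it alone, which left 18193 genes and no filter on low signal. Of the members 18 had 1 probe set and 14 several. Groups came from the labels. The 12 arrays entered 1 linear model with a mean for each group, in limma 3.58.1 under R 4.3.3, with two-sided moderated tests, Benjamini-Hochberg adjustment over all genes and calls at an adjusted p under 0.05. The fit had 8 residual and 3.8078 prior degrees of freedom. Errors of differences are standard errors. The number of arrays limits the precision. Entrez Gene ids of 34741 probe sets were found in RefSeq, and 0 symbols differed. Promoter sequences are RefSeq's, of build GRCm38.p6, with none used for Usp18, Dhx58, Oas2, Iigp1, Parp9 and Parp14.

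The members and lists were chosen with earlier results of these data known. Members described by array were those called in any comparison plus Stat2, Irf7, Irf9 and Ifit1, with Dtx3l, Parp9 and Ddx58 added after their values were seen. From the other lists genes called in a comparison were named, up to 5 each, and the 4 receptor subunits always. Alternatives tried, 24 in all, were quantile normalization, median centring, a filter on dim genes, the mean of all probe sets, all probe sets tested, only the arrays compared, array weights, a mean-variance trend, a replicate block, the removal of both arrays with acinar transcripts, the removal of each array, a threshold of 0.01 and a 1.5-fold minimum.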

Additional observations from a re-analysis of the deposited data

How the results depend on the processing

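Over 24 alternatives the median of the members kept its sign in each of the 4 comparisons between groups. Many of the alternatives could not move it, because they leave the differences between group means as they are. These were all probe sets tested, only the arrays compared, the mean-variance trend, the replicate block and the changed thresholds. The removal of an array outside the comparison could not move it either. The median was 0.21 to 0.42 for CDDO-Im in Nrf2 null and 0.21 to 0.31 in wild type. It was -0.22 to -0.05 between genotypes with vehicle and -0.27 to -0.06 with CDDO-Im. The median of the interaction was -0.03 to 0.17. Counts of calls moved more. Members called higher in Nrf2 null, 4 as reported, were 2 with the mean of all probe sets (Bst2 and Usp18), 8 with array weights, 2 without both arrays with acinar transcripts (Bst2 and Dhx58), 1 at an adjusted p under 0.01 (Bst2), 2 with a 1.5-fold minimum (Bst2 and Usp18), and 0 to 7 when 1 array was left out. In wild type, 1 as reported, they were 2 with quantile normalization, 10 with array weights, 3 without the acinar arrays (Bst2, Dhx58 and Ifit3), 0 at 0.01, and 0 to 4 when 1 array was left out. Members called lower were 0 to 1 on leaving out 1 array in Nrf2 null given CDDO-Im against vehicle (Oas2), between genotypes with vehicle (Bst2, without replicate 3 of Nrf2 null vehicle) and between genotypes with CDDO-Im (Ifit3, without replicate 3 of Nrf2 null CDDO-Im). With array weights, 8 members were called lower in Nrf2 null given vehicle than in wild type given vehicle and 1 higher. The interaction called 0 members under every alternative. The cause of these shifts was not tested. All genes called were 97 to 1897 for CDDO-Im in Nrf2 null (1074 as reported), 104 to 2023 in wild type (332), 16 to 1477 and 123 to 467 between genotypes with vehicle and CDDO-Im (71 and 263) and 15 to 89 for the interaction (25). Array weights gave the highest of these counts in every comparison except that between genotypes with CDDO-Im. So more calls among the members came there with more calls over all genes. The weight of replicate 1 of wild type vehicle was 3.78, where the other arrays had 0.452 to 1.81.

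Same-numbered samples of different groups had a median correlation of their deviations of 0.0142 (18 pairs, 4 over 0.1). Samples with unlike numbers had 0.0116 (36 pairs, 13 over 0.1). These values gave no sign that the numbers pair the samples, but they cannot exclude it. With the replicate number as a block 5 members were called higher in Nrf2 null and 5 in wild type (Bst2, Dhx58, Ifit3, Irf7 and Usp18), and 0 in the other comparisons.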
